A study of Mus musculus with 23 samples.

Results

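Cell-cycle genes, 40 by name, were followed in the tibialis anterior muscle of the mouse across genotype, 6-OHDA treatment and time of day. They cover the cyclins that open the cycle, the licensing and copying of DNA, nucleotide supply, the Cdk1 kinase, mitosis and cytokinesis. Members were chosen by gene symbol, and 35 of the 40 matched a row among the 14500 genes of the deposited table. Tyms, Bub1, Cenpe, Cenpf and Hmmr had no matched row and were not analysed here.

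A cell enters the cycle when D-type and then E-type cyclins release E2F transcription factors from the retinoblastoma protein, and E2F then switches on the genes for DNA replication. Later, Cdk1 with cyclins A and B drives mitosis, and the anaphase-promoting complex ends it by having the cyclins destroyed. Adult muscle fibres do not divide, so in whole muscle these transcripts are known mainly from satellite cells, connective tissue, vessels and immune cells, although several members also have roles or transcripts in cells that do not divide.

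The samples were whole tibialis anterior muscles of female C57BL/6 mice fed ad libitum, and total RNA was sequenced in pairs. Wild-type sham muscle had 4 libraries at zeitgeber time 0 (ZT0, lights on), from mice of 13 to 18 weeks, and 3 at ZT12 (lights off), from mice of 12 to 18 weeks. Wild-type 6-OHDA muscle had 4 libraries at ZT0, at 15 to 16 weeks, and 4 at ZT12, at 12 to 15 weeks. RE-RE mice carry Bmal1(stopFL/stopFL), Syt10-Cre(-/tg) and Hsa-Cre(-/tg), a stopped Bmal1 gene that 1 Cre restores in neurons of the brain's clock and the other in skeletal muscle. RE-RE sham muscle had 2 libraries at ZT0, at 10 to 11 weeks, and 2 at ZT12, at 11 weeks. RE-RE 6-OHDA muscle had 2 at ZT0, at 12 and 16 weeks, and 2 at ZT12, at 15 and 18 weeks. 6-OHDA, a toxin that destroys sympathetic nerve endings, was given into the muscle at 50 mg/kg in ascorbic acid over 2 weeks, and 2 weeks of recovery followed. Sham muscle had no injection, so the toxin and the injections cannot be told apart. Libraries are numbered within genotype and treatment: wild-type sham 1 to 4 and 6-OHDA 1 to 4 are ZT0, and in RE-RE 1 and 2 are ZT0. The labels do not say more of the source of each library than that it is a separate sample, so p-values measure the spread between these samples.

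Levels are FPKM, fragments scaled by exon length and by a total per library, and differences are on the deposited log2(FPKM + 0.01) scale unless log2(FPKM + 1) is named. The reads behind the values, recovered from the steps between low values, came to 21.1 to 36.1 M per library. A member had from 0 to 4067 reads in a library, and 18 of the 35 fell under 20 reads in some library. Tests were made with limma over all 14500 genes, and passing means an adjusted p (Benjamini-Hochberg) under 0.05. Muscle fibre markers summed to 38403 FPKM or more in every library, so the tissue label held. RE-RE libraries varied more than wild-type ones (median residual SD 0.47 against 0.231 on the log2 scale). The library labelled RE-RE 6-OHDA 2 stood apart from the other 3 of its kind. It lay within the RE-RE sham range in 20 of the 26 members that rose in wild-type muscle, above it in 2 and below it in 4. Its label could not be checked from these data, and why it differs was not tested.

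The stretches before the start sites of 4 members that changed after 6-OHDA are shown because 2 kinds of motif known from cell-cycle genes lie in them. They were the 4 members with the smallest p that held either motif. Each run is the 250 bases before the RefSeq start (GRCm38.p6), 5′ to 3′ on the gene's strand, with capitals for the matches. Cdk1 lies at chr10:69352913-69353162, Mki67 at chr7:135716380-135716629, Mcm6 at chr1:128359706-128359955 and Top2a at chr11:99024190-99024439, all on the minus strand.
Cdk1: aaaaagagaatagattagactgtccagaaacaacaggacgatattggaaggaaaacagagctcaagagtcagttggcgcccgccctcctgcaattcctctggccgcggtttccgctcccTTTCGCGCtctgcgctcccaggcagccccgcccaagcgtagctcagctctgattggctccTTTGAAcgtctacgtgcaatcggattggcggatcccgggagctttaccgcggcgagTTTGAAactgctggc
Mki67: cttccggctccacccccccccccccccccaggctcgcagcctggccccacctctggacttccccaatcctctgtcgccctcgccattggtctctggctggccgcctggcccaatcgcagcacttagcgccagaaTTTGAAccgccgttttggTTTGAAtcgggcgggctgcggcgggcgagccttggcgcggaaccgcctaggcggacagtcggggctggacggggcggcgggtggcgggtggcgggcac
Mcm6: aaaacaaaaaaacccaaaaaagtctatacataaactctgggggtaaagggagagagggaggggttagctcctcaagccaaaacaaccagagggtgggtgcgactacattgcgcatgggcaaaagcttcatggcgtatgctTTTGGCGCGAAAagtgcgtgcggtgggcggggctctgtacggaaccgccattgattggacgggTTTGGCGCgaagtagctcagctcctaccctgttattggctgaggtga
Top2a: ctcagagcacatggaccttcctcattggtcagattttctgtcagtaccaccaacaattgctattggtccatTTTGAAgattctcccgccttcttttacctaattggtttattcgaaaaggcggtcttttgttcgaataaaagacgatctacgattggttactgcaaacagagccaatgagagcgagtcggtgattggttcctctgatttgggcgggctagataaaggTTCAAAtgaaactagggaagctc
The cell-cycle genes homology region, TTTGAA on either strand, appeared in Cdk1, Mki67 and Top2a, at 2 places in each. The E2F-type motifs searched were TTTCCCGC, TTTGGCGC, TTTCGCGC and TTTGCCGC on either strand. Cdk1 held 1, and Mcm6 held 3, of which 2 overlap in a run of capitals. Promoter windows matched 28 of the 35 members by symbol. TTTGAA was in 10 of these 28 genes and in 18.3% of 27025 genes with a window, and an E2F-type motif was in 4 of 28 and in 2.16%. CCAAT, the box bound by NF-Y, was in 23 of 28 and in 37.5%. Of members that rose after 6-OHDA, 8 of 21 with a window held TTTGAA, and 2 of 7 of the others. These matches describe letters, not bound sites.

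In wild-type muscle, 26 of the 35 members rose after 6-OHDA, 3 fell and 6 did not pass. On the deposited scale Cdk1, Mki67 and Top2a rose most, by 5.21-fold, 4.996-fold and 4.73-fold. Pcna, the sliding clamp of the replication fork, stayed at 10.2 FPKM in both groups. Of all genes tested, 49.8% passed, 24.5% higher and 25.2% lower. The median difference of the members was 1.11, against -0.03 over all genes. On log2(FPKM + 1), 25 members rose and 3 fell, with a median of 0.28 (24.3% of all genes passed as higher and 25.6% as lower), and Prc1 no longer passed. The order changed on that scale. Ccnd1, Rrm2 and Mcm6 rose most, by 1.13, 0.69 and 0.65, ahead of Mki67 at 0.61, Cdk1 at 0.51 and Top2a at 0.49. Under quantile normalization 18 members rose and 4 fell, beside 21.4% and 27.2% of all genes. Ccnb1, Foxm1, Aurkb, Birc5, Nusap1, Prc1, Racgap1 and Anln, described as rises in what follows, did not pass under it, and Mcm7 joined the members that fell. In whole muscle, more cells of a dividing type and more RNA per cell cannot be told apart.

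The members that rose stood low in sham muscle, with mean levels of 0.0514 to 1.96 FPKM and a median of 0.229. The 9 that did not rise had means of 0.557 to 10.7 FPKM and a median of 2.26. The 2 sets were formed by a test that used these same sham values, so this contrast only describes them. In FPKM, which is per length, the order of wild-type sham means ran from Ccnb1 and Aurkb at the bottom to Pcna (10.2 ± 0.788, SD, n = 7) and Rrm1 (10.7 ± 1.94) at the top, whose ranges of 8.60 to 11.0 and 7.73 to 13.7 overlap. Next below was Mcm7 at 2.94 ± 0.465 FPKM, whose range of 2.46 to 3.70 did not reach that of Pcna.

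**Figure D1:**
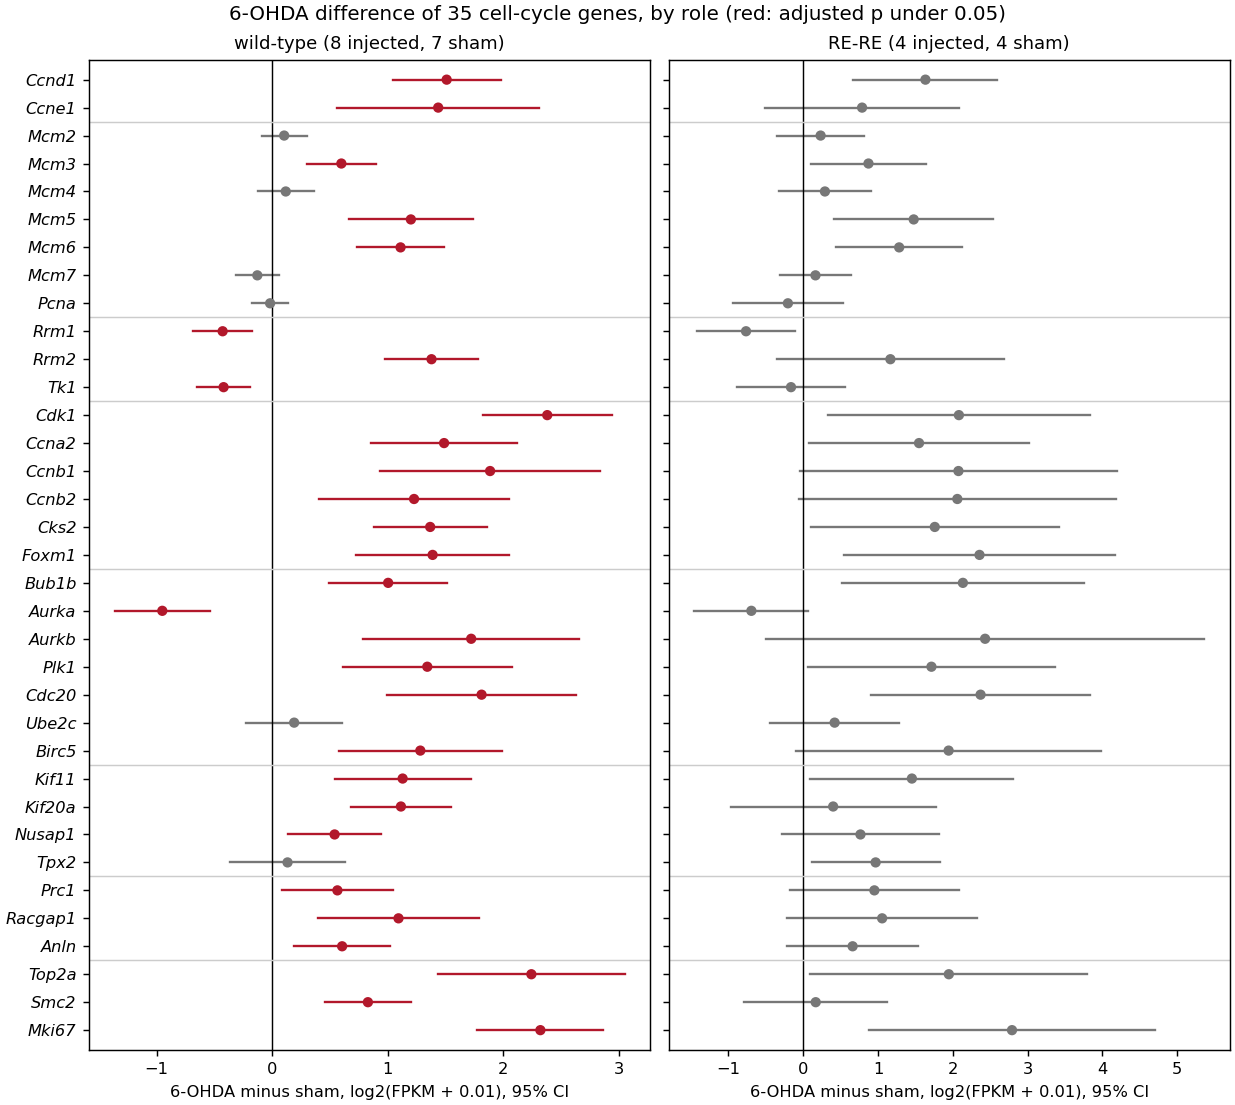
Difference between 6-OHDA and sham muscle for 35 cell-cycle genes on the log2(FPKM + 0.01) scale, with 95% confidence intervals from limma, in wild-type (left, 8 against 7 libraries) and RE-RE mice (right, 4 against 4). Grey lines separate roles in the order of the text, and red marks an adjusted p under 0.05. In wild-type muscle 26 lie above 0 in red and 3 below; no RE-RE interval is red, and those intervals are wider.

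Both G1 cyclins rose. Ccnd1, cyclin D1, which answers growth signals, had 1.28, 1.66 and 3.25 FPKM as lowest, median and highest in wild-type sham muscle, and 3.23, 4.96 and 9.95 in 6-OHDA muscle. The groups met only at sham library 1 and 6-OHDA library 5, and the difference was 1.51 ± 0.22 (SE, limma adjusted p = 0.000179; 1.13 ± 0.17 on log2(FPKM + 1)). Exon bases of LTO1 on the other strand overlap 23.4% of its exons, and the strand setting of the counting is not given in the sources used here. Ccne1, cyclin E1, which starts DNA synthesis with Cdk2, went from 0.0177, 0.139 and 0.324 to 0.193, 0.378 and 0.556 FPKM. It rose by 1.44 ± 0.41 (limma adjusted p = 0.0102), and by 0.26 on log2(FPKM + 1), from 1 to 21 reads per sham library.

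The helicase and fork genes split. Of 7, Mcm3, Mcm5 and Mcm6 rose, and Mcm2, Mcm4, Mcm7 and Pcna did not pass, although the 6 Mcm proteins form 1 ring. Mcm6 ran at 0.733, 0.899 and 1.14 FPKM in sham and at 1.36, 1.92 and 3.28 in 6-OHDA muscle. Every 6-OHDA library was above every sham library, with a difference of 1.11 ± 0.17 (limma adjusted p = 0.000303; 0.65 ± 0.11 on log2(FPKM + 1)). Mcm5 ran at 0.259, 0.333 and 0.690 and at 0.509, 0.845 and 1.56 FPKM. It rose by 1.2 ± 0.25 (limma adjusted p = 0.00167), and sham library 6, at 0.690, lay within the 6-OHDA range. Mcm3 rose by 0.60 ± 0.14. Mcm2 and Mcm4 had differences of 0.10 (95% CI -0.09 to 0.30) and 0.12 (-0.12 to 0.36), and Mcm7 of -0.13 (-0.32 to 0.06).

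Pcna had 8.60, 10.2 and 11.0 FPKM in sham and 8.53, 9.79 and 11.6 in 6-OHDA muscle, so the groups covered nearly the same range. Its difference was -0.02 ± 0.07 (95% CI -0.17 to 0.14, limma adjusted p = 0.852). This direction depends on the scaling. With each library scaled by its own total of recovered reads, the median of all genes moved to 0.30, and 50.8% of genes passed as higher and 5.83% as lower. Pcna was then at 0.32 and passed, Tk1 at -0.09 and Rrm1 no longer passed as lower, and 29 members rose and 1, Aurka, fell. The annotation names 2 pseudogenes of Pcna, whose reads the counting could have shared.

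The nucleotide genes moved apart. Rrm2, the small subunit of ribonucleotide reductase that cycling cells make in S phase, had 0.430, 0.610 and 0.668 FPKM in sham and 1.04, 1.42 and 2.50 in 6-OHDA muscle. Its groups did not overlap, and it rose by 1.38 ± 0.19 (limma adjusted p = 0.000138; 0.69 ± 0.11 on log2(FPKM + 1)). Rrm1, the large subunit of the same enzyme, fell by 0.43 ± 0.12 (limma adjusted p = 0.00865), from 7.73, 10.6 and 13.7 to 7.04, 7.85 and 10.0 FPKM. The Rrm1 ranges overlap, as do those of Tk1. Tk1, cytosolic thymidine kinase, ran at 1.95, 2.29 and 3.03 and at 1.49, 1.69 and 2.19 FPKM, a difference of -0.42 ± 0.11 (limma adjusted p = 0.00553).

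All 6 genes around Cdk1 rose, namely Cdk1, Ccna2, Ccnb1, Ccnb2, Cks2 and Foxm1, although Ccnb1 and Foxm1 did not pass under quantile normalization. Cdk1, the kinase that triggers mitosis, had 0.0683, 0.0806 and 0.203 FPKM in sham muscle, 7 to 24 reads, and 0.298, 0.565 and 1.05 in 6-OHDA muscle, 39 to 179 reads. The groups did not overlap, and the difference was 2.38 ± 0.26 (limma adjusted p = 5.09e-05; 0.51 ± 0.08 on log2(FPKM + 1)). Cks2, a small protein that binds Cdk1, had 0.284, 0.357 and 0.748 and then 0.662, 0.941 and 1.96 FPKM. It rose by 1.37 ± 0.23 (limma adjusted p = 0.000413), from 5 to 11 reads per sham library, and sham library 1 lay within the 6-OHDA range. Ccna2, cyclin A2, rose by 1.49 ± 0.29 without overlap between the groups. Exosc9 on the other strand overlaps 12.5% of the exons of Ccna2. Ccnb1 and Ccnb2, the mitotic B cyclins, rose by 1.89 ± 0.44 and 1.23 ± 0.38 (Ccnb2 did not pass without sham library 6), and Foxm1, a transcription factor of late-cycle genes, by 1.39 ± 0.31. Ccnb1 had 1 to 14 reads per sham library, and a pseudogene is named for each B cyclin.

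Among 7 mitotic kinase, checkpoint and anaphase genes, 5 rose, 1 fell and 1, Ube2c, did not pass, and under quantile normalization Aurkb and Birc5 did not pass as rises. Cdc20, the activator of the anaphase-promoting complex, had 0.0660, 0.198 and 0.316 FPKM in sham and 0.390, 0.534 and 2.14 in 6-OHDA muscle. It had 3 to 15 reads per sham library. It rose by 1.81 ± 0.38 without overlap (limma adjusted p = 0.00182; 0.52 ± 0.14 on log2(FPKM + 1)). Aurkb, the kinase that corrects chromosome attachment, rose by 1.72 ± 0.43, from 1 to 10 reads per sham library. Plk1, which acts at centrosomes and kinetochores, rose by 1.34 ± 0.34. Birc5, a partner of Aurkb, rose by 1.28 ± 0.33, and Bub1b, of the spindle checkpoint, by 1.0 ± 0.24. Aurka, the centrosome kinase, ran the other way, from 1.58, 1.93 and 2.95 to 0.734, 0.888 and 1.80 FPKM. It fell by 0.95 ± 0.19 (limma adjusted p = 0.00137), 1.93-fold lower, and only 6-OHDA library 4, at 1.80, lay within the sham range. Ube2c, the ubiquitin-conjugating enzyme of that complex, had a difference of 0.19 (95% CI -0.22 to 0.60). Tnnc2, a troponin gene of fast muscle, overlaps 22.8% of its exons on the other strand.

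Of 4 spindle genes, Kif11, Kif20a and Nusap1 rose and Tpx2 did not pass. Kif20a, a kinesin of the central spindle, had 0.150, 0.223 and 0.292 FPKM and then 0.340, 0.456 and 0.971. It rose by 1.11 ± 0.20 without overlap (limma adjusted p = 0.000716), and Cdc23 on the other strand overlaps 29.3% of its exons. Kif11, the kinesin that pushes spindle poles apart, had 0.239, 0.324 and 0.512 and then 0.380, 0.859 and 1.59 FPKM. Its difference was 1.13 ± 0.27 (limma adjusted p = 0.00428), with 6-OHDA libraries 4, 5 and 8 inside the sham range. Nusap1, which bundles microtubules, rose by 0.54 ± 0.19, and did not pass without sham library 5 or 7 or under quantile normalization. Tpx2, an activator of Aurka, had a difference of 0.13 (95% CI -0.36 to 0.63).

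All 3 cytokinesis genes rose, but none of them passed under quantile normalization. Racgap1, part of the central spindle, had 0.0981, 0.192 and 0.272 FPKM and then 0.190, 0.393 and 0.951, a rise of 1.09 ± 0.32 (limma adjusted p = 0.0131). Anln, which organises the contractile ring, had 0.304, 0.354 and 0.450 and then 0.399, 0.518 and 1.16, a rise of 0.60 ± 0.19 (limma adjusted p = 0.0185). In both genes the highest 6-OHDA value was library 1, and the ranges overlap. Prc1, a microtubule bundler, passed narrowly at 0.56 ± 0.22 (limma adjusted p = 0.0496), and did not pass in 16 of 23 other settings.

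The 3 chromosome genes rose. Mki67, the source of the Ki-67 antigen that coats mitotic chromosomes, had 0.0858, 0.134 and 0.173 FPKM in sham muscle, 22 to 42 reads, and 0.326, 0.638 and 1.72 in 6-OHDA muscle, 79 to 596 reads. The groups did not overlap, and the difference was 2.32 ± 0.25 (limma adjusted p = 5.09e-05; 0.61 ± 0.11 on log2(FPKM + 1)). Top2a, the topoisomerase that untangles sister DNA, had 0.0349, 0.10 and 0.172 and then 0.240, 0.522 and 1.57 FPKM. It rose by 2.24 ± 0.37, also without overlap (limma adjusted p = 0.000433; 0.49 ± 0.11 on log2(FPKM + 1)). Smc2, of the condensin complex, rose by 0.83 ± 0.17. In all, 8 of 35 members had every 6-OHDA library above every sham library, beside 7.92% of all genes, and 0 had every library below, beside 5.28%.

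**Figure D2:**
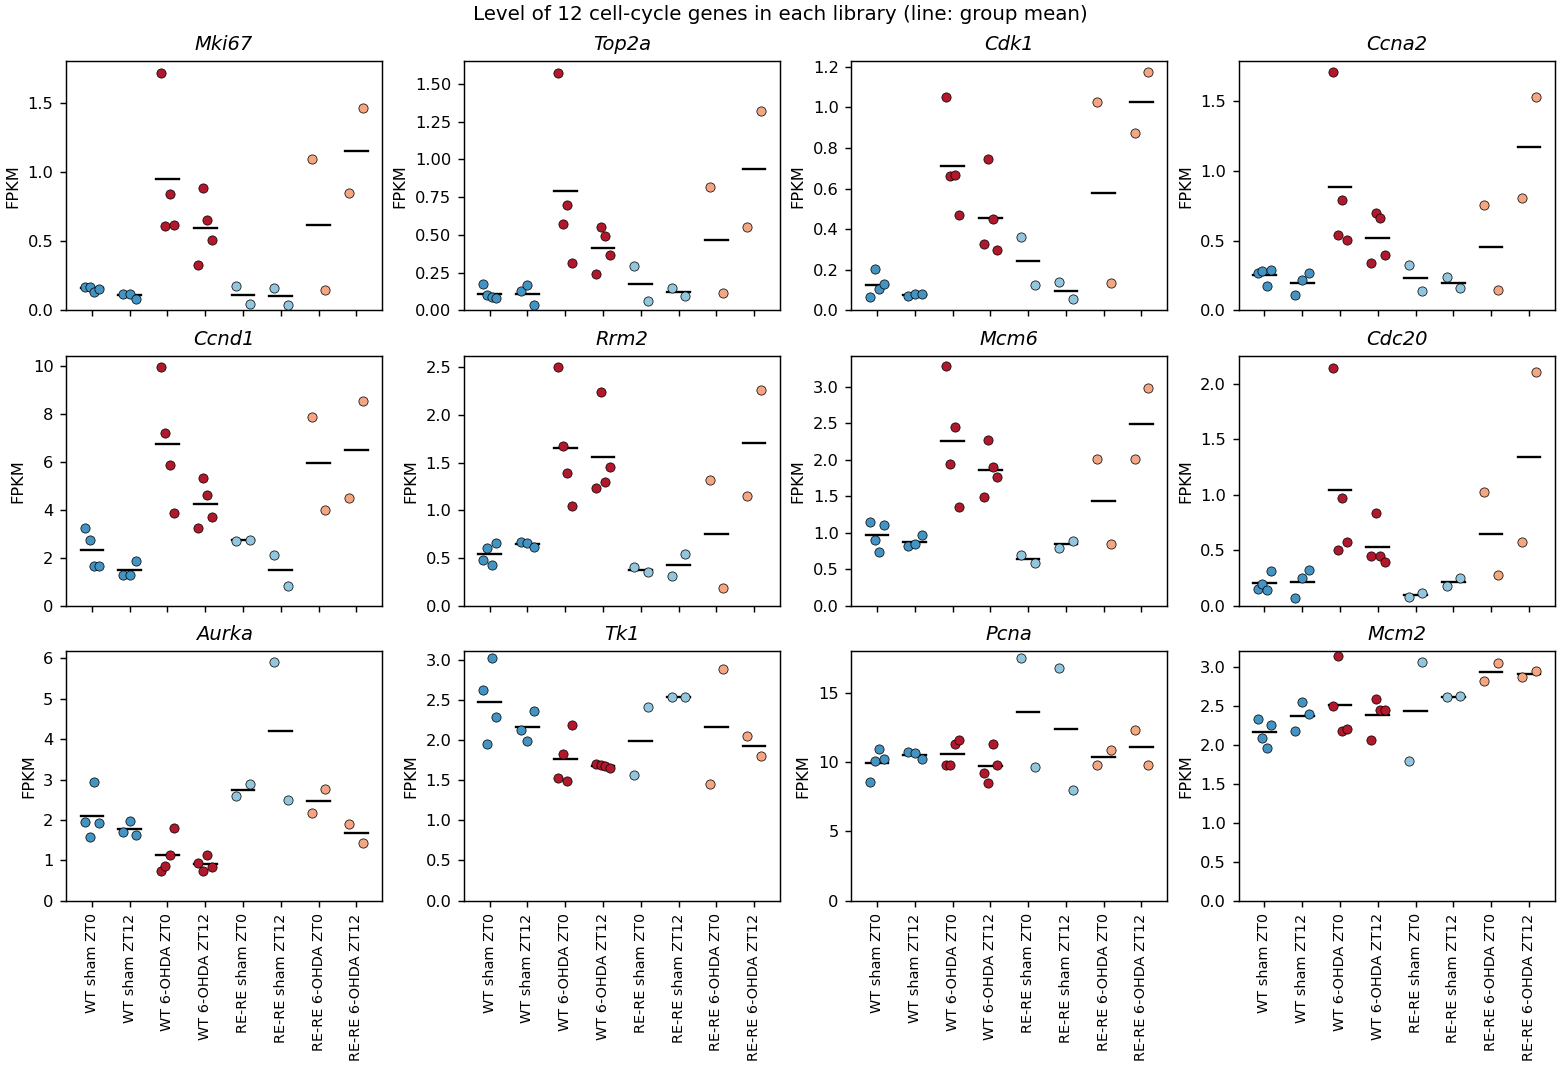
FPKM of 12 cell-cycle genes in each of 23 libraries (points) by genotype, treatment and time, with the group mean as a line. Mki67, Top2a, Cdk1, Ccna2, Rrm2, Mcm6 and Cdc20 show all wild-type 6-OHDA points above the wild-type sham points, Aurka and Tk1 run lower, and Pcna and Mcm2 overlap.

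The rise differed in size between 6-OHDA libraries. Library 1, from ZT0, was the highest of the 8 in 25 of the 26 members that rose, library 5 the lowest in 14 and library 4 the lowest in 10. Summed over these 26 members, sham libraries held 7.84 to 11.8 FPKM and 6-OHDA libraries 14.9 to 45.8. The 26 were chosen by a test on these same libraries, so that separation is built in. Over all 35 members the sums overlap, at 41.8 to 46.8 FPKM in sham and 43.3 to 77.1 in 6-OHDA libraries. Without library 1, 25 members rose and 3 fell, with a median difference of 0.99, beside 3272 of 14500 genes higher and 3278 lower.

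**Figure D3:**
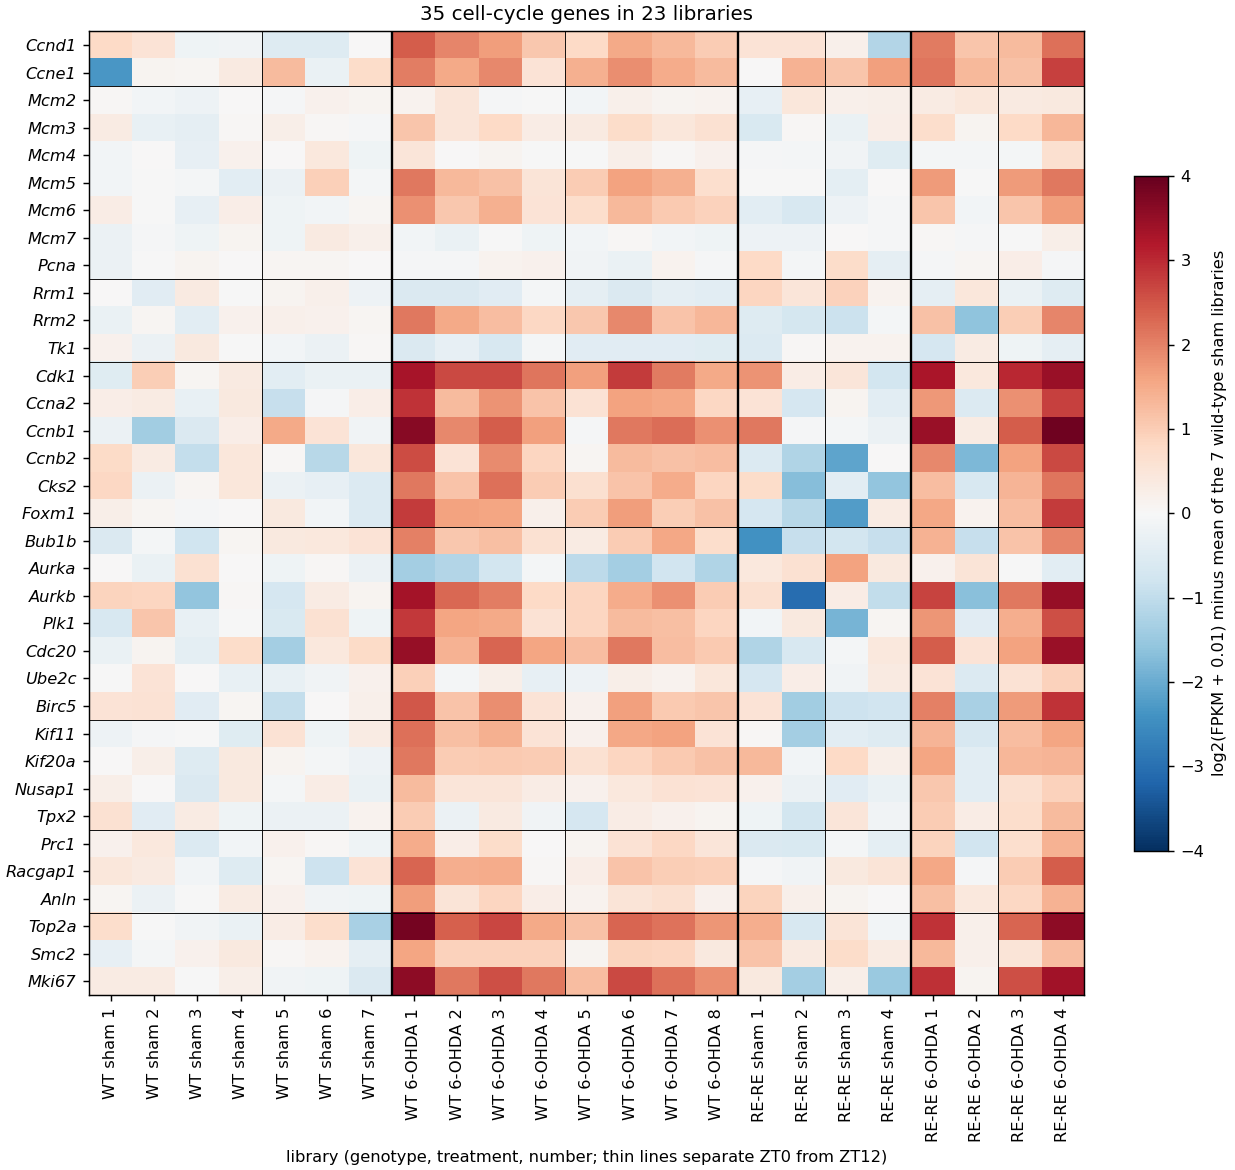
Each cell is log2(FPKM + 0.01) of 1 of 35 cell-cycle genes in 1 of 23 libraries, minus the mean of the 7 wild-type sham libraries, with red higher and blue lower. Wild-type 6-OHDA library 1 and RE-RE 6-OHDA libraries 1 and 4 are the reddest columns, and RE-RE 6-OHDA library 2 is close in colour to the sham columns.

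Markers of other cell types moved with treatment in the same muscles, where 24.5% of all genes passed as higher and 25.2% as lower. All 10 macrophage markers rose in wild-type 6-OHDA muscle, from a summed 25.5 to 66.8 FPKM in sham to 144 to 511, and all 7 fibroblast markers rose, from 122 to 319 to 445 to 1411. Of 10 satellite cell and regenerating fibre markers, 5 rose and 0 fell, from 104 to 131 to 111 to 226 FPKM. The largest part of that sum was Myf6, with a median of 72.5 FPKM in sham and 70.4 in 6-OHDA muscle, beside summed medians of 116 and 154. Within that list Myh3, the embryonic myosin, went from 0.804 to 2.30 FPKM to 4.36 to 52.3, while Pax7, a marker of satellite cells, lay at 0.652 to 1.02 and 0.533 to 0.901. Endothelial markers rose in 3 of 6 (61.7 to 108 against 90.5 to 133 FPKM), Schwann cell markers in 4 of 4 (4.63 to 14.5 against 8.8 to 19.1) and adipocyte markers in 4 of 4 (0.345 to 1.86 against 2.02 to 12.1). Of lymphocyte markers, 3 of 10 were measured and 2 rose (0.402 to 0.754 against 0.454 to 1.96 FPKM), and of neutrophil markers 2 of 5 were measured and 1 rose (0.0391 to 0.453 against 0.346 to 1.12), with S100a9 at 0 in 3 sham and 4 6-OHDA libraries. Erythroid markers fell in 3 of 5 (127 to 226 against 44.2 to 142 FPKM). Of 8 muscle fibre markers 2 rose and 4 fell (57502 to 70737 against 38403 to 53526 FPKM), and of keratinocyte markers the 1 measured of 4, Krt10, did not pass (0.619 to 1.26 against 0.604 to 0.754). Whether any of these cell types accounts for the rise in cell-cycle genes was not tested.

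**Figure D4:**
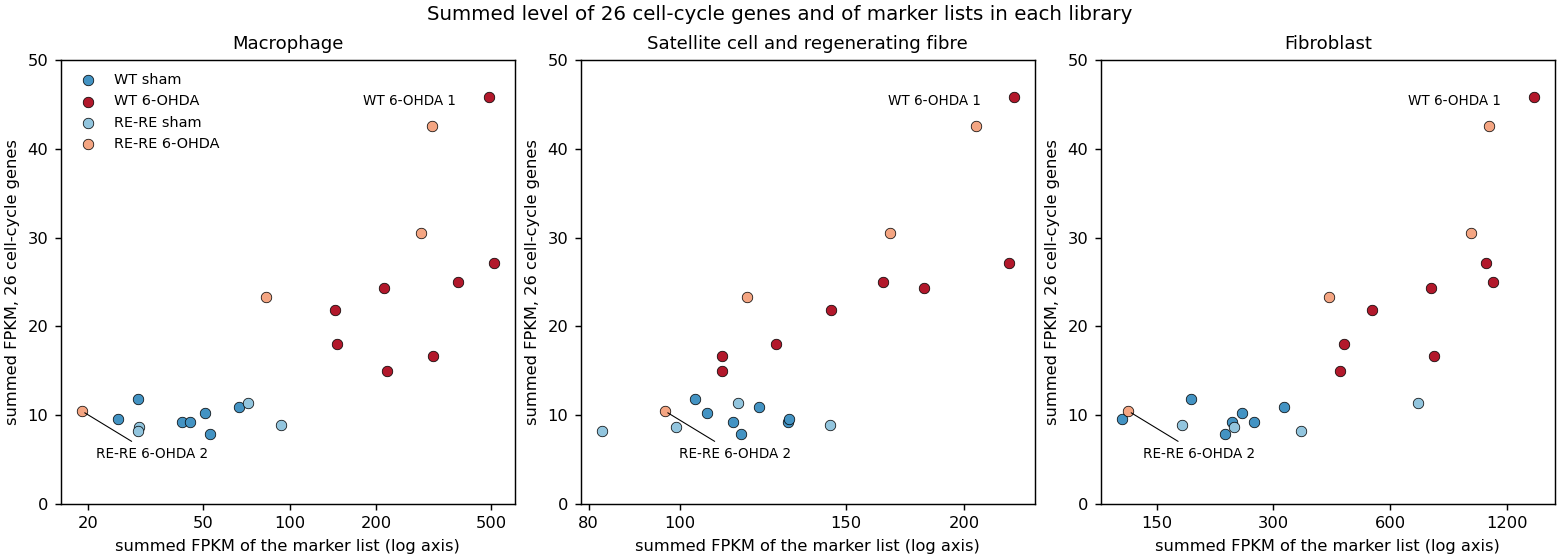
Summed FPKM of the 26 cell-cycle genes that rose in wild-type muscle (vertical axis) against the summed FPKM of macrophage, satellite cell and regenerating fibre, and fibroblast markers (horizontal log axes), 1 point per library. Myf6 is the largest single part of the satellite cell and regenerating fibre sum. The 26 genes were chosen by a test on the wild-type libraries, so their separation between wild-type groups is built in. Wild-type 6-OHDA library 1 has the highest sum, 45.8 FPKM, and RE-RE 6-OHDA library 2, at 10.5, lies among the sham points and has the lowest macrophage sum.

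Further cell-cycle genes outside the 35 were read from a list of 87, of which 63 matched, and 28 rose and 8 fell after 6-OHDA in wild-type muscle, beside 24.5% of all genes higher and 25.2% lower. Among mitotic genes 11 of 17 rose and 1 fell, with a median difference of 0.71. Ckap2l and Ckap2, spindle proteins, rose by 2.62 ± 0.41 and 1.90 ± 0.31, and Pttg1, securin, fell by 0.78 ± 0.13, from 30.1 ± 3.13 FPKM (SD, n = 7) to 17.9 ± 4.27 (n = 8). Among G1 to S regulators 8 of 15 rose and 3 fell, with a median of 0.23. Ccnd2, another D cyclin, rose from 1.27 ± 0.208 to 2.96 ± 0.695 FPKM, E2f2, an activating E2F, by 1.02 ± 0.11, and Cdk2, the partner of cyclin E, by 0.44 ± 0.08. Of 13 origin and replication genes, 4 rose and 2 fell, with a median of 0.0086, so the share that rose was near that of all genes. Cdt1, a licensing factor, rose by 1.33 ± 0.26, Uhrf1, which keeps DNA methylation through replication, by 1.55 ± 0.32, and Rfc4, of the clamp loader, fell by 0.73 ± 0.17.

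Of 8 CDK inhibitors, 3 rose, 0 fell and 5 did not pass, with a median of 0.31, beside 24.5% of all genes higher and 25.2% lower. Cdkn1a, p21, which stops the cycle and also accompanies muscle differentiation, went from 16.6 ± 4.04 FPKM (SD, n = 7) to 39.9 ± 18.8 (n = 8), a difference of 1.17 ± 0.24. Cdkn1c, p57, went from 12.5 ± 2.79 to 33.1 ± 13.6 FPKM, and Cdkn2a from 0.788 ± 0.507 to 2.76 ± 1.46 FPKM. Of 10 entry and checkpoint genes, 2 rose and 2 fell, with a median of 0.04, so neither share exceeded that of all genes. The values of those named here are given as single genes. Wee1, which holds Cdk1 inactive, rose by 0.85 ± 0.15 and Cdc25b, which releases it, by 0.70 ± 0.14, while Ccng1, cyclin G1, a p53 target, fell from 296 ± 54.2 to 207 ± 39.5 FPKM.

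Time of day gave no call among the members. In wild-type sham muscle, 0 of 35 passed between ZT12 and ZT0 in limma, beside 1.96% of all genes, and 1, Bub1b, had an unadjusted p under 0.05. In wild-type 6-OHDA muscle, 0 of 35 passed, beside 2.08%, and 1, Smc2, had an unadjusted p under 0.05 and was the 1 member lower in every ZT12 than in every ZT0 library, beside 3.19% of genes. The opposite held for 0 members, beside 4.01%. All but Ccne1 and Mcm7 were lower at ZT12, with a median of -0.34, against 0.001 over all genes. The ZT0 mice were 15 to 16 weeks old and the ZT12 mice 12 to 15, so age and time cannot be fully told apart here. With age as a covariate the members' median was -0.42. Mki67 was 0.948 ± 0.525 FPKM at ZT0 and 0.594 ± 0.235 at ZT12 (SD, n = 4 each), a difference of -0.62 (95% CI -1.36 to 0.12). The members' median of -0.34 rests on single libraries of ZT0: it was -0.11 without library 1 and -0.55 without library 4, and from -0.43 to -0.23 without any 1 of the other 6. The change of the 6-OHDA difference between the times gave 0 of 35, beside 0.0207% of genes, with Bub1b and Ccnb1 at an unadjusted p under 0.05.

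In RE-RE muscle, 31 of 35 members had a positive difference between 6-OHDA and sham, with a median of 1.17, against 0.00062 over all genes. In limma within RE-RE 0 members passed, beside 0.0138% of all genes. At an unadjusted p under 0.05 there were 16 members, and the smallest adjusted p was 0.377. With the spread pooled over all 23 libraries, 17 members passed as higher and 1 as lower, beside 11.3% and 13.1% of all genes. Since RE-RE libraries varied more, that pooled fit understates their error. The 4 RE-RE sham mice were 10 to 11 weeks old and the 6-OHDA mice 12 to 18, so age and treatment cannot be told apart here, and with age as a covariate the members' median was -0.08.

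The values by library showed 3 high 6-OHDA muscles and 1 low. Mki67 had 0.180, 0.0466, 0.161 and 0.0419 FPKM in RE-RE sham libraries 1 to 4 and 1.09, 0.147, 0.847 and 1.46 in 6-OHDA libraries 1 to 4. Cdk1 had 0.364, 0.124, 0.141 and 0.0545 in sham and 1.03, 0.134, 0.876 and 1.17 in 6-OHDA muscle, and Top2a 0.294, 0.0615, 0.150 and 0.0938 against 0.816, 0.118, 0.555 and 1.32. In these 3 genes 6-OHDA library 2 was within the sham range and the other 3 were above it. Ccnd1 had 2.71, 2.74, 2.12 and 0.808 FPKM in sham and 7.88, 3.97, 4.47 and 8.53 in 6-OHDA muscle, and with Cdc20 it was 1 of 2 members whose 6-OHDA libraries all lay above sham, beside 2.76% of genes. For 0 members did they all lie below, beside 1.92%. Rrm2 had 0.402, 0.354, 0.312 and 0.542 against 1.32, 0.184, 1.15 and 2.26 FPKM, so library 2 was below every sham library. Mcm6 had 0.686, 0.585, 0.788 and 0.886 against 2.01, 0.844, 2.01 and 2.98, with library 2 again within the sham range.

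Over the 26 members that rose in wild-type muscle, RE-RE 6-OHDA libraries 1 and 4 were above the RE-RE sham range in 26 each and library 3 in 23, whereas library 2 was above it in 2, within it in 20 and below it in 4. Library 2 was the lowest of the 4 in 25 of these 26 members. Its macrophage markers summed to 19.0 FPKM, against 284, 82.8 and 311 in libraries 1, 3 and 4, and the RE-RE sham range was 29.9 to 93.7. Its fibroblast markers, at 126 FPKM, and its adipocyte markers, at 0.19, also lay below every RE-RE sham library (174 to 709 and 1.65 to 6.40). The library labelled 6-OHDA 2 thus resembled sham muscle in most of the 26 members, its label could not be checked from these data, and why it differs was not tested. The median difference of the 35 members, 1.17 with all libraries, was 0.79, 1.59, 1.41 and 0.92 without 6-OHDA library 1, 2, 3 or 4 in turn, and 0 members passed in limma in any of these fits.

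Between the genotypes, 1 of 35 members passed in sham muscle, beside 9.19% of all genes. Comparisons between genotypes pooled the spread of all 23 libraries, which understates the error of the more variable RE-RE libraries. Rrm1 was 10.7 ± 1.94 FPKM in wild-type (SD, n = 7) and 19.0, 14.8, 19.99 and 11.6 in RE-RE libraries 1 to 4, a difference of 0.59 ± 0.18 (limma adjusted p = 0.0499). It did not pass under quantile normalization, with age or array weights in the fit, on own totals or recovered reads, or with the compared groups alone. It passed without wild-type sham library 3 or RE-RE sham library 2 or 4, and 0 members passed without any 1 of the other 8 sham libraries. Bub1b had 0.121 to 0.322 FPKM in wild-type and 0.0326, 0.11, 0.127 and 0.11 in RE-RE sham muscle (-1.30 ± 0.41, limma adjusted p = 0.0545). Aurka had 1.58 to 2.95 in wild-type and 2.59, 2.90, 5.92 and 2.50 in RE-RE sham muscle (0.77 ± 0.25, limma adjusted p = 0.0567). The RE-RE sham mice were younger than every wild-type sham mouse, so age and genotype cannot be told apart in this comparison.

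In 6-OHDA muscle, 0 of 35 members passed between the genotypes in limma, beside 0.228% of all genes. At an unadjusted p under 0.05 were Aurka and Tpx2, at 1.03 ± 0.24 and 0.70 ± 0.28 (limma adjusted p = 0.096 and 0.431). Without wild-type 6-OHDA library 4, 1 member passed, beside 32 of 14500 genes. Without RE-RE 6-OHDA library 1, 2 members passed, beside 849 genes, so their share was near that of all genes. Aurka had 0.734 to 1.80 FPKM in wild-type and 2.17, 2.76, 1.90 and 1.43 in RE-RE 6-OHDA muscle. The change of the 6-OHDA difference with genotype gave 0 of 35, beside 0.0276% of genes, with 1 member, Tpx2, at an unadjusted p under 0.05. For Mki67 that change was 0.47 (95% CI -0.98 to 1.92) and for Cdk1 -0.30 (-1.68 to 1.08), so neither direction nor equality of the genotypes' responses is shown. These intervals rest on the same pooled spread.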

How the data were processed

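Whole-muscle RNA was sequenced in 23 libraries. The values deposited by the authors are log2 FPKM, with 0.01 added, for 14500 genes on GRCm38. The submitters' processing notes name edgeR 3.30.0, featureCounts 1.6.2, HISAT2 2.1.0, Trim Galore 0.5.0 and FastQC 0.11.8, with no order. Any factor applied between libraries, and the strand setting, are not given in the sources used here.

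Symbols, exon lengths and overlaps came from GENCODE M21, and promoters from RefSeq. Recovered reads were whole within 0.1 read for 86.4% to 94.7% of values up to 20 reads. The log2 values were fitted with R 4.3.3 and its package limma 3.58.1, using a group-means model, a trend, no filter on low values and Benjamini-Hochberg adjustment over all rows. Comparisons within a genotype used its own libraries, and those between genotypes used all 23. The fits were tested on simulated data.

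Genes given by library are Mki67, Top2a, Pcna and Ccnd1, the 2 of each role with the smallest p for 6-OHDA in wild-type muscle, and 3 for any other comparison with a pass. Others named, such as Ccna2 and Tpx2, were chosen after their values were seen. The members and lists were chosen with earlier results of these data known. Alternatives were log2(FPKM + 1), a filter, quantile normalization, other pools, age, array weights, a replicate block and leaving out libraries. Own totals, limma-voom on recovered reads and removal of 3 RE-RE libraries were added after seeing the data. Same-numbered RE-RE libraries deviated together with correlations of 0.109 and 0.122, which are only 2 independent values because each group holds 2 libraries, and their ages differ. Tables and plots used python 3.11.15, pandas 2.3.3 and matplotlib 3.10.9.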

Additional observations from a re-analysis of the deposited data

Results flagged for a closer look

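Of 57 sets of 4 libraries tested for a library far from the rest, 2 stood out, and chance alone gives about 1 in 20. Cdc20 was 0.831 FPKM in wild-type 6-OHDA library 6 at ZT12, and the other 3 libraries lay at 0.390 to 0.446. Kif20a was 0.971 FPKM in wild-type 6-OHDA library 1 at ZT0, and the other 3 lay at 0.448 to 0.460. Both members rose after 6-OHDA under each alternative that tested them.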

How the results depend on the processing

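For 6-OHDA in wild-type muscle, 22 to 30 members passed under the alternatives other than the filter, beside 4848 to 8179 genes. The filter, FPKM of at least 1 in 2 libraries, kept 16 members and passed 11, beside 6516 of 12369 genes. It kept some members, such as Rrm2 with at most 0.668 FPKM in sham muscle, only through 6-OHDA libraries. The count under the filter therefore does not bear on the rise. Quantile normalization gave 18 higher and 4 lower. Leaving out each library gave 27 to 29, beside 6480 to 7608 of 14500 genes. Of the rises, Ccnb1, Foxm1, Aurkb, Birc5, Nusap1, Prc1, Racgap1 and Anln did not pass under quantile normalization and Ccnb2, Aurkb, Nusap1 and Prc1 not with all 23 libraries pooled, and Rrm1 and Tk1 did not pass as lower on recovered reads. The difference of Pcna turned positive with quantile normalization (0.022), age (0.0050), own totals (0.32) and limma-voom (0.32), and when wild-type sham library 3 or 6-OHDA library 1, 2 or 6 was left out, and ran from -0.056 to 0.012 over the 15 libraries left out in turn. In RE-RE, pooling all 23 libraries passed 18 members, beside 3538 of 14500 genes. It passed 25 members, beside 3880 genes, without sham libraries 1 and 3 and 6-OHDA library 2. Those 3 were left out after their values were seen, library 2 being low in these members, so the 25 does not bear on the rise. Between genotypes in sham muscle, 2 members passed on log2(FPKM + 1), beside 1218 of 14500 genes. With quantile normalization, compared groups only, age, array weights, own totals or limma-voom 0 members passed, and 0 to 4 when a library was left out. The 4 passed without RE-RE sham library 2 or 4, beside 4509 and 5014 genes, so their share was below that of all genes. In 6-OHDA muscle, leaving out a library gave 0 to 2, beside 20 to 849 of 14500 genes.

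Over all genes, counts moved by more than 1.5 times in places: 84 to 589 for time in sham and 97 to 1449 in 6-OHDA wild-type muscle, and 0 to 1332 for genotype in sham muscle, where leaving out a library gave 128 to 5014. For 6-OHDA in RE-RE they ran from 0 to 3880, for genotype in 6-OHDA muscle from 13 to 849 and for the change of the 6-OHDA difference with genotype from 0 to 1074. The members' counts for both time comparisons and both changes of the 6-OHDA difference stayed at 0 in every setting run.

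With the replicate block, 26 members passed for 6-OHDA in wild-type muscle, 23 higher and 3 lower, beside 3299 and 3306 of 14500 genes. In the 3 other comparisons that could take the block 0 members passed, beside 0 to 13 genes. Same-numbered wild-type libraries did not deviate together (correlations of -0.10 to 0.06), and the ages of same-numbered samples differ. No paired analysis was possible for the time and genotype comparisons because their groups do not share numbers as a pairing. Depth limits members with few reads, such as Ccnb1, Aurkb, Ccne1, Cks2 and Cdc20, most.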
